A study of Mus musculus with 3 samples.

Results

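Loss of Stra8 was examined in fetal mouse testes that already lacked Nanos2. The comparison set the array column of male gonads with genotype Nanos2-/-/Stra8-/- against the column of male gonads with genotype Nanos2-/-/Stra8+/-, both from embryos at E14.5, so the pair made up 2 of the 3 columns in the series. The remaining column, male gonads at the same age with genotype Nanos2+/-/Stra8+/-, is called the control column and is given beside the others for orientation. The first column is called double-null below and the second Nanos2-null, after the genes that each lacks by its label, and animals heterozygous for Stra8 thus served as the reference. RNA of whole gonads was hybridised to Agilent one-colour arrays, and each column's title names replicates 1 and 2, which were deposited as 1 set of values. There is therefore no error between animals for any difference below and no test was possible. The sources used here do not give the construction of the Nanos2 and Stra8 alleles or the number of gonads pooled. In whole gonads, fewer cells of a type cannot be told apart from less RNA per cell.

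STRA8 is a transcriptional regulator that germ cells make in response to retinoic acid and that is needed for entry into meiosis. In the fetal ovary it acts with MEIOSIN to switch on genes of the meiotic chromosome axis, of cohesion and of recombination. Germ cells of the fetal testis normally do not enter meiosis, because retinoic acid is degraded there and because NANOS2, an RNA-binding protein, represses Stra8 and promotes the male programme. Testes lacking Nanos2 are the setting in which male germ cells make Stra8, so removing Stra8 as well addresses which differences of the Nanos2-null testis need it.

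The deposited values are relative and have no unit. Most probes have a middle value close to 1, so a value can be compared between columns for the same probe but not between probes. Differences are given as log2 of the Nanos2-/-/Stra8-/- value over the Nanos2-/-/Stra8+/- value, and a difference of 1 is 2-fold. Of 41174 array probes, 7552 lay below 0.7 in all 3 columns and were left out, which left 17122 named genes. Of these, 7416 had 2 or more probes and 9706 had a single probe. The difference of a gene is the median over its probes. Since animals cannot be compared, agreement among the probes of a gene was used instead. Probes share the same RNA and arrays, so their agreement speaks for the measurement and not for the genotype.

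The targeted genes were examined first. For Nanos2 the control column held 87.2, the Nanos2-null column 0.364 and the double-null column 0.397. It was low in both columns that lack Nanos2 by label. For Stra8 the control column held 0.108, the Nanos2-null column 1.13 and the double-null column 1.34. Its single probe was thus not lower in the column labelled as lacking Stra8, with a difference of 0.24 as deposited and of -0.01 after quantile normalization. The sources used here do not say whether the probe reads the part of Stra8 that was removed, so it checks nothing about the label. Every direction below is that of the library labelled double-null and rests on this label.

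Differences between the columns were small for most genes, and their typical value was not 0. The median over all genes was 0.14, and 15355 genes, or 89.7%, differed by less than 1.5-fold. Among the probes left out for low values the median was 0.30, and its quartiles were 0.22 and 0.34. The negative control probe behaved likewise, at 0.354 in the Nanos2-null column and 0.454 in the double-null column, a difference of 0.36. By contrast, 8 of the 10 spike-in control probes lay above the limit of 0.7 in all columns, and these differed by -0.11 to 0.14. The low probes and the negative control were thus offset upward by more than these spike-in signals, but not all control signals went the same way, since the dark corner spots, which also have no target, were at 0.864 and 0.45 in the Nanos2-null and double-null columns. Some further control spots moved more than the 8 spike-in probes, in both directions. In the Nanos2-null and double-null columns eQC-39 had 0.914 and 1.61, and AT_ssM_RR_3 had 1.04 and 0.385. The part of the upward offset of low signals in the results for single genes was not tested. Differences are best read against the median of 0.14.

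**Figure D1:**
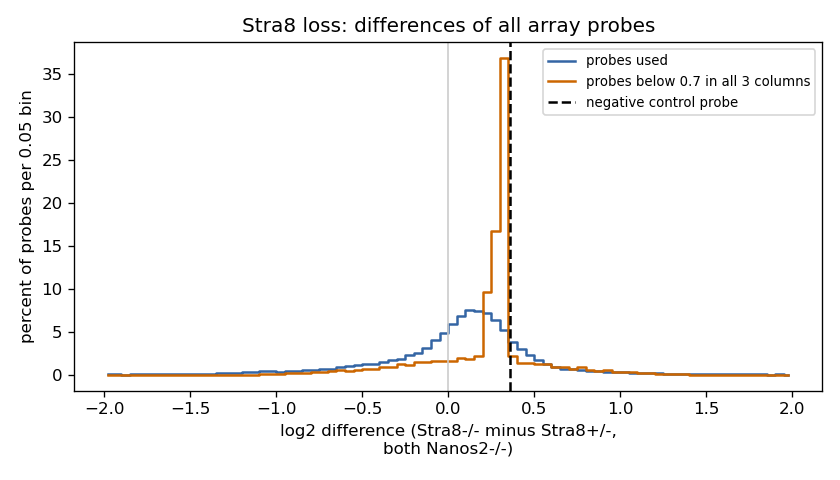
Percent of probes in each bin of the log2 difference, Nanos2-/-/Stra8-/- minus Nanos2-/-/Stra8+/-, for the 33622 probes used and for the 7552 probes below 0.7 in all 3 columns. The low probes form a narrow peak beside the dashed line of the negative control probe at 0.36, while the probes used peak lower, around a median of 0.12, with tails on both sides.

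Probes of the same gene agreed poorly, which sets how much a single probe can tell. The pooled standard deviation of probe differences within a gene was 0.42 on the log2 scale, larger than the standard deviation of 0.29 between the differences of genes with 2 or more probes. Across the 4875 genes with exactly 2 probes, the differences of the probes correlated with r = 0.13, a description across genes that are not independent. In 319 of these genes at least 1 probe passed 2-fold, but both passed in the same direction in only 12, or 3.76%, and in opposite directions in 7. A probe past 2-fold was more often lower than higher, counted whether or not the other probes agreed. Of 7416 genes with 2 or more probes, 478 had a probe at least 2-fold lower and 241 a probe at least 2-fold higher. Among the genes with exactly 2 probes, 185 had a probe 2-fold lower, 3 of them by both. A probe 2-fold higher was found in 141, in 9 of them by both. The same standard deviation was 0.32 for the Nanos2-null column minus the control column and 0.48 for the double-null column minus the control column.

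**Figure D2:**
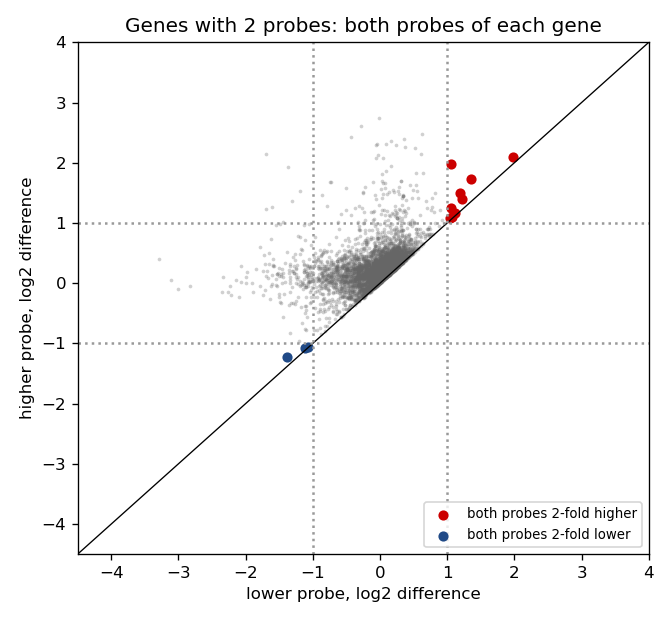
Log2 differences of the lower and the higher probe of each of the 4875 genes with exactly 2 probes, each point 1 gene. Most genes with a large difference have it by 1 probe while the other lies near 0, and 9 genes with both probes 2-fold higher and 3 with both 2-fold lower lie near the diagonal.

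Only 12 genes differed at least 2-fold by every probe, and none of them belongs to the meiotic lists described below. Every probe was higher in 9 genes, 0.121% of the 7416 genes with 2 or more probes, and lower in 3 genes, or 0.0405%. As deposited, 75% of these genes were higher, and with differences centred on the median of all probes used the counts were 5 higher and 4 lower, or 55.6% higher. All 12 were measured by 2 probes each, and the sources used here do not say whether these overlap in sequence.

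The germ cell gene among them was Lhx8, a homeobox transcription factor of early oocytes. By its probes the control column held 0.193 and 0.187, the Nanos2-null column 0.861 and 0.85, and the double-null column 1.77 and 1.80. Both probes stepped up from the control column to the Nanos2-null column and again to the column labelled as lacking Stra8, and Lhx8 was 2.09-fold higher in this last step. The step falls just under 2-fold, to 0.92 and 0.96 on the log2 scale, once differences are centred, and also with quantile normalization or a pseudocount.

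Genes of secreted peptides were also among those higher. Prok2, which encodes the secreted ligand prokineticin 2, had values of 0.856 and 0.645 in the Nanos2-null column and of 3.37 and 2.75 in the double-null column. It was 4.09-fold higher, the largest difference by every probe, while its control values were 0.529 and 0.580, below those without Nanos2 alone by a smaller step. The Prok2 probe at 2.75 passed the filter only through the double-null column. Cartpt, the precursor of a neuropeptide, had values of 0.857 and 0.835 without Nanos2 and of 1.80 and 1.79 without both genes, against 0.386 and 0.323 in the control column. Like Lhx8, its probes stepped up in both comparisons and lay at 0.95 and 0.98 after centring.

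The other genes higher by both probes had no role in the lists examined here. Clic6, a member of the chloride intracellular channel family, was 2.92-fold higher, with values of 0.772 and 0.565 against 1.97 and 1.88. Its control values were 0.413 and 0.264, so its probes also stepped up in both intervals. Elmod1, a regulator of ARF GTPases, was 2.53-fold higher and almost equal in the control and Nanos2-null columns, at 0.490 and 0.505 against 0.506 and 0.488. Mdfi, an inhibitor of MyoD family transcription factors, went from 0.934 and 0.939 to 2.03 and 2.10. For Elmod1 and Mdfi the double-null column therefore stood apart from the other columns, which differed little from each other. Both Elmod1 probes lay below the filter limit in those other columns and passed only through the double-null column. For Elmod1 the filter thus fixes that this column was the high one. As for the Prok2 probe at 2.75, it also fixes this for single probes of other genes. These were the Clic6 probe at 1.88, the Cd300lg probe at 0.977 and the Glyat probe at 1.52 in the double-null column. The Mdfi probes lay above the limit in every column, so this does not apply to Mdfi. Cd300lg, a receptor of the CD300 family made in endothelium, was 2.49-fold higher. Glyat, a glycine N-acyltransferase, and Trgv2, a T cell receptor gamma variable segment, were 2.86-fold and 2.22-fold higher, but each lost the call under most alternatives, and Trgv2 had further probes among those left out, the lowest of them at 0.12.

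The 3 genes lower by both probes serve general cell functions. Zgrf1, known in humans as a helicase of DNA repair, had values of 1.20 and 1.19 in the Nanos2-null column and of 0.459 and 0.510 in the double-null column, 2.46-fold lower. Ddx23, a helicase of the spliceosome, went from 1.15 and 0.999 to 0.533 and 0.472. Ube2s, a ubiquitin-conjugating enzyme of the anaphase-promoting complex, went from 1.08 and 1.05 to 0.517 and 0.505. In each of these genes the control values, between 1.0 and 1.06, lay near those without Nanos2 alone, so the low column was the one labelled as lacking Stra8.

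**Figure D3:**
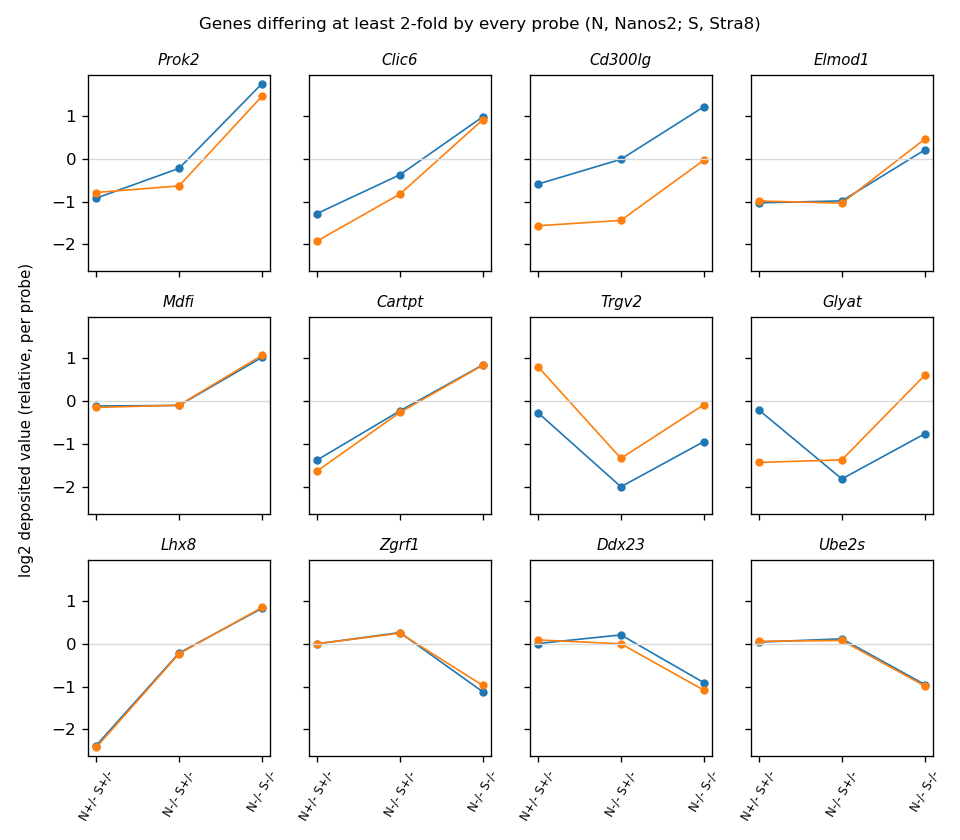
Log2 deposited values of each probe (1 line per probe, zero marked by a grey line) in the 3 columns for the 12 genes that differ at least 2-fold by every probe. Lines of 1 gene run nearly parallel in most panels. Lhx8, Cartpt and Clic6 are among those that step up in both intervals, and Zgrf1, Ddx23 and Ube2s are lowest in the last column.

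With the size lowered to 1.5-fold, 56 genes were higher by every probe, or 0.755%, and 20 were lower, or 0.27%. Among these, 6 genes with established symbols had 3 probes each, and they are named here although chosen after their values were seen. Gsr, the glutathione reductase, was higher by all 3 probes, with values between 0.844 and 0.934 in the Nanos2-null column and between 1.51 and 1.56 in the double-null column. Tsc22d3, a glucocorticoid-induced regulator, lay between 0.897 and 0.979 and then between 1.43 and 1.65. In both genes each probe was higher in the double-null column, by 0.73 to 0.84 for Gsr and by 0.68 to 0.76 for Tsc22d3 on the log2 scale. Slc1a2, a glutamate transporter, and Fhad1 were also higher by all 3 probes, at 2.12-fold and 1.64-fold. Fhad1 had control values of 2.73 to 2.99 and Nanos2-null values of 0.498 to 0.639, so that its double-null values of 0.998 to 1.0 lay between. Peg3, an imprinted zinc finger gene, was 1.89-fold lower and Masp2, a protease of the complement lectin pathway, 1.85-fold lower.

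Genes of meiosis were the main question of the comparison, and as a group they differed little between the columns. The 4 meiotic lists held 61 genes, of which 52 had a probe passing the filter. None of the 52 reached 2-fold in either direction by the median of its probes, where 2.42% of all genes did so upward and 1.31% downward. Differences ran from -0.82 to 0.54, with a median of 0.06 against 0.14 over all genes, and 50 of the 52 stayed within 1.5-fold. Below 0 lay 23 of them, against 28.8% of all genes. Prdm9 had low values in all columns, and Meiosin, Rad21l, Ankrd31, Spata22, Rnf212, Shoc1 and Rbm46 were among those not analysed here.

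The members with the largest differences were lower and belong to the chromosome axis and the telomere attachment complex. Sycp2, an axial element protein of the synaptonemal complex, had values of 0.996, 0.986 and 1.01 by its 3 probes in the Nanos2-null column and of 0.527, 0.602 and 0.896 in the double-null column. All 3 probes were lower but by unequal amounts, from -0.92 to -0.17, and only the last of them was kept when a probe had to reach 0.7 in both columns. Majin, which anchors meiotic telomeres in the nuclear envelope, had values of 1.48 and 0.997 against 0.801 and 0.595, 1.76-fold lower with both probes in the same direction. Its control values of 1.18 and 1.39 were also above those of the double-null column.

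Several genes that were higher in the Nanos2-null column than in the control column had similar values in the double-null column. Sycp1, the transverse filament protein of the synaptonemal complex, had values of 0.419, 1.13 and 1.02 in the control, Nanos2-null and double-null columns. Terb1 and Terb2, which work with MAJIN at telomeres, had values of 0.559, 1.54 and 1.69 and of 0.409, 1.06 and 1.06 in the same order. Hormad2, a protein of the meiotic axis, had values of 0.584, 1.16 and 1.05. For these 4 genes the difference in the Stra8 comparison lay between -0.16 and 0.14, far smaller in size than the step from the control column. Terb1 lay near the median of all genes, 0.14, while Sycp1 and Hormad2 lay below it, at -0.16 and -0.14. They are named for that step, so values near 0 in the next one carry no weight of their own, and each has a single probe.

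The median of the cohesion and telomere attachment list was near that of all genes. Among the cohesin genes, Rec8 and Smc1b lay above the median of all genes and Stag3 below it. Rec8, the meiotic kleisin subunit, had values of 1.0 by both probes in the Nanos2-null column and of 1.30 and 1.37 in the double-null column, a difference of 0.42. Smc1b, its meiotic SMC partner, differed by 0.38 and Stag3 by 0.06. Of 11 genes for cohesion and telomere attachment, 2 lay below 0, where 28.8% of all genes did, and the median was 0.20, or 0.06 above that of all genes. Sycp3, the other axial element protein, was 1.45-fold higher by its single probe, opposite to Sycp2, and Tex12, of the central element, differed by 0.30. The 12 axis and synapsis genes split into 6 above and 6 below 0, with a median of 0.05.

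Recombination genes lay lowest among the 22 gene lists, by a small margin. Their median over 19 genes was -0.08, or -0.21 relative to all genes, and 11 of 19 lay below 0. M1ap, needed for recombination in spermatocytes, was 1.39-fold lower, and Hsf2bp, which binds BRCA2 in meiosis, was 1.28-fold lower. Spo11, which makes the double-strand breaks, had values of 1.12 and 1.10 by its probes in the Nanos2-null column and of 0.886 and 0.906 in the double-null column. Dmc1, the meiotic recombinase, differed by -0.29 and Mei1 by -0.26, while Mei4, a break-formation factor, was 1.45-fold higher. The differences of Hsf2bp, Spo11, Dmc1 and Mei1 are smaller than the spread of 0.42 between probes of a gene. Mlh3 shows that spread, with 1 probe at -0.87 and the other at 0.15.

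**Figure D4:**
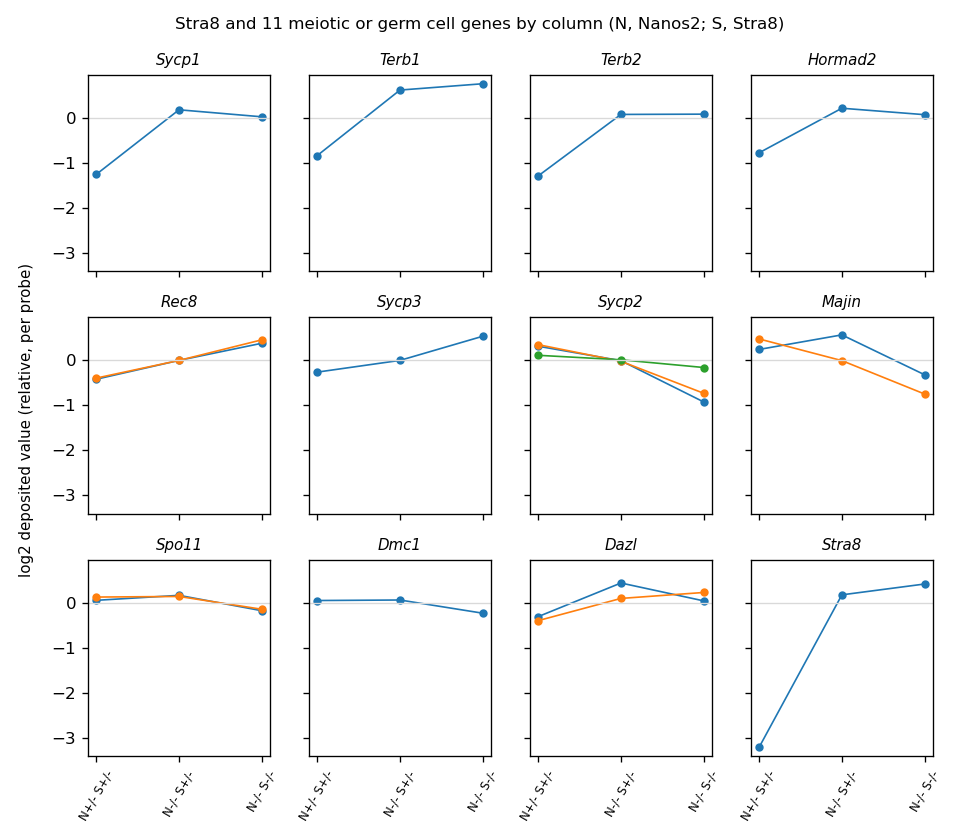
Log2 deposited values of each probe (1 line per probe) in the 3 columns for Stra8 and 11 meiotic or germ cell genes. Stra8, Sycp1, Terb1, Terb2 and Hormad2 step up from the first to the second column and stay level in the third, whereas Sycp2 and Majin lie lowest in the third.

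Regulators of meiotic entry included members of the PRC1.6 repressor complex, which holds meiotic genes silent. Of the 10 regulators used, none reached 2-fold, and the median was 0.13. Mga, the scaffold of the complex, was lower by all 3 probes, with values of 1.14 to 1.17 against 0.655 to 0.946 and a gene difference of -0.49. L3mbtl2 lay at -0.33, while Rnf2, E2f6 and Pcgf6 were higher by both probes each, with gene differences of 0.41, 0.38 and 0.28. Members of the same complex thus lay on both sides of the median. Dazl, the germ cell RNA-binding protein needed for competence to enter meiosis, had probes at -0.40 and 0.13, and Ythdc2 probes at -0.27 and 0.30.

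Promoter sequences were scanned because STRA8 is reported to bind an 8-letter motif, CNCCTCAG, in mouse. The windows hold 250 bases before and 50 after each start, from RefSeq on GRCm38.p6, and both strands were searched, the reverse strand as CTGAGGNG. The motif was found in 2609 of 32851 promoters, or 7.94%, and in 11 of the 50 promoters of the meiotic genes used, or 22.0%. The 11 genes with the motif had a median difference of -0.05, from -0.48 to 0.45, and the 32 genes with a promoter in the table but no motif had a median of 0.14, from -0.71 to 0.54. The ranges overlap nearly whole. Shown are Sycp2, Mga, Mei4 and Sycp3, the members with the largest differences among those with a promoter in the table, which differed in both directions and have no match in these windows, and the genes with a match that had the lowest and the highest difference, M1ap and Spdya. Spdya activates CDK2 at meiotic telomeres and had a difference of 0.45. Capitals mark the match, which lies on the reverse strand in both.
Sycp2, chr2:178407609-178407908, minus strand: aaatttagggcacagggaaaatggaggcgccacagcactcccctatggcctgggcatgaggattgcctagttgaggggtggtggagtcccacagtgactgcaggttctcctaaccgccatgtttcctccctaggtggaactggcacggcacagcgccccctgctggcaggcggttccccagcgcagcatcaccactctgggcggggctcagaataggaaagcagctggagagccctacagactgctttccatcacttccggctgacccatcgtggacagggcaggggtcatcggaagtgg
Mga, chr2:119896978-119897277, plus strand: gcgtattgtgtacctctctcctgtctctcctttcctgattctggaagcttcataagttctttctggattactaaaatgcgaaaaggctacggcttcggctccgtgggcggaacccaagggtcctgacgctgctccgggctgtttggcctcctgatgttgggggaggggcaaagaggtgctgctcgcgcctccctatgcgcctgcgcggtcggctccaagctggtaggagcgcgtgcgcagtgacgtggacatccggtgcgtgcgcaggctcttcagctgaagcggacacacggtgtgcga
Mei4, chr9:81863420-81863719, plus strand: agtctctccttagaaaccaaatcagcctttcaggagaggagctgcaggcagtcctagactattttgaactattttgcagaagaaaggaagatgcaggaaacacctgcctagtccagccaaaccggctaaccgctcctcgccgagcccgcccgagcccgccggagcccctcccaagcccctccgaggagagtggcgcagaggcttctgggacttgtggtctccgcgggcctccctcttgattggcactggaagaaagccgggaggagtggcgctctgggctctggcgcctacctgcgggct
Sycp3, chr10:88459337-88459636, plus strand: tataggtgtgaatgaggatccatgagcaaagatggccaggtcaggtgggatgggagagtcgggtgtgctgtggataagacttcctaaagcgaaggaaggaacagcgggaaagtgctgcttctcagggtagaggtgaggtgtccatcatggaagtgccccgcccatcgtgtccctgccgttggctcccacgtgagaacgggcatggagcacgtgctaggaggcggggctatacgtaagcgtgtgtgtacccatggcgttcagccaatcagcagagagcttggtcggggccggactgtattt
M1ap, chr6:82946672-82946971, plus strand: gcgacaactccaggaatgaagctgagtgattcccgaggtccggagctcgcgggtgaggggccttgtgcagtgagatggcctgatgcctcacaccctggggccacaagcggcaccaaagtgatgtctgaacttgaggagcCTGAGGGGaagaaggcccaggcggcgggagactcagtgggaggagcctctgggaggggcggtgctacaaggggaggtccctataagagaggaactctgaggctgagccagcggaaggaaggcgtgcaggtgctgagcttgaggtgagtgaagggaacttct
Spdya, chr17:71551811-71552110, plus strand: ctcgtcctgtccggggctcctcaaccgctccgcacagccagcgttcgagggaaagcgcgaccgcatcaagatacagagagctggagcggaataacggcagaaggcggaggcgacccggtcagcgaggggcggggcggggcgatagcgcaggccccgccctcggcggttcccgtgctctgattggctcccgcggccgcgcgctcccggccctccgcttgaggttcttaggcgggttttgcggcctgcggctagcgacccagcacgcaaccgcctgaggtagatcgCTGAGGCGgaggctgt

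Retinoic acid genes differed little, with a median of 0.12 over 17 genes and none at 2-fold by the median of its probes. Cyp26a1, which degrades retinoic acid, had values of 0.263, 1.20 and 1.32 in the control, Nanos2-null and double-null columns, and the target gene Hoxb1 had 0.452, 1.20 and 1.51. Both stayed at or above the level of the Nanos2-null testis with Stra8, with differences of 0.14 and 0.33. Cyp26b1, the main retinoic acid-degrading enzyme of the fetal testis, differed by 0.05. Rdh10, an enzyme of retinoic acid synthesis, was higher by both probes, with a gene difference of 0.36. The largest differences were downward. Stra6, the retinol transporter, was 1.56-fold lower, and the receptor Rarb had 1 probe at -1.19 and another at -0.05.

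Several genes of the male germline were lower without Nanos2 than in the control column and had similar values in both columns without it. They are named for that first step, so values near each other in the next one carry no weight of their own. Dnmt3l, the cofactor of germline DNA methylation, had values of 6.24, 1.0 and 0.810 in the control, Nanos2-null and double-null columns. Tdrd9, a helicase of the piRNA pathway, had 2.72, 0.869 and 0.906, and Gtsf1, another piRNA factor, had 2.31, 0.936 and 0.947 by 1 probe and 2.37, 0.926 and 0.946 by the other. Not every member was lower without Nanos2, since Dnmt3b, Tdrd6 and Tdrkh had differences of 0.83, 0.53 and 0.52 from the control to the Nanos2-null column. Over 18 measured genes for methylation and piRNA the median was 0.12, which is 0.02 below that of all genes, and 13 lay above 0 with none at 2-fold. Small upward differences were those of the piRNA methyltransferase Henmt1, from 0.704 to 0.999 with a control value of 1.48, and of Tdrd1, from 0.864 and 0.692 to 1.0 and 0.997 with control values of 1.39 and 1.22. For both, the value without both genes lay between the others. Piwil4 had low values in all columns.

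Germ cell identity and pluripotency genes gave no member at 2-fold. The 19 identity genes had a median of 0.15 and the 14 pluripotency genes one of 0.07. Alpl, the alkaline phosphatase of primordial germ cells, was 1.66-fold higher, and Ddx4, the germ cell RNA helicase, was 1.37-fold higher. The primordial germ cell regulators Prdm1 and Tfap2c differed by 0.39 and 0.34. In the other direction, Lin28b was lower by both probes, with a gene difference of -0.36, and Rhox9 lay at -0.31. Of the 19 identity genes, 7 lay below 0, where 28.8% of all genes did. Pou5f1, the pluripotency factor OCT4, was 1.47-fold lower, with values of 1.02, 1.32 and 0.899 in the control, Nanos2-null and double-null columns. Pou5f1 thus ended below its control value. Dppa4, at 1.49, 0.808 and 0.955, and Fbxo15, at 1.47, 0.755 and 0.887, also did, but were already lower without Nanos2 alone. Nanog at 0.462, 1.18 and 1.06 and Sox2 at 0.462, 1.12 and 1.16 stayed above their control values. So did the probes of Dppa5a at 0.360, 1.20 and 0.992 and at 0.359, 1.14 and 1.06. Nanog, Sox2 and Dppa5a were chosen with their large first steps known, 1.36, 1.28 and 1.71, so this contrast carries no weight of its own.

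Nodal signalling held 1 large difference. Tdgf1, the co-receptor of NODAL, had values of 0.735, 0.890 and 2.09 in the control, Nanos2-null and double-null columns and was 2.35-fold higher by its single probe. Its high value was thus in the double-null column alone. Lefty1, a secreted Nodal inhibitor, had values of 0.215, 1.04 and 1.52, a smaller step of 0.54. Nodal itself differed by 0.12, and Fst, which binds activin, was 1.51-fold lower. The 15 genes had a median of 0.10.

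Early oocyte genes formed the list with the highest median, 0.34 over 14 genes, or 0.20 above all genes, which became 0.22 when probes had to reach 0.7 in both columns without Nanos2. Of these, 11 lay above 0, and 3 were at least 2-fold higher, where 2.42% of all genes were, with none lower. The 3 were Lhx8, described above, Nlrp14 and Oog1, the last a member of a multigene family whose probe may read several copies. The members fell into different patterns over the columns. Figla, the factor for primordial follicles, had values of 0.558, 0.929 and 1.5, and Sohlh2 had 0.215, 0.998 and 1.31, so both stepped up each time, as Lhx8 did. Nlrp14 had values of 1.14, 0.254 and 1.04, Oog1 had 1.39, 0.508 and 1.08, and the probes of the zona pellucida gene Zp3 had 1.10, 0.616 and 1.0 and 0.914, 0.460 and 1.09. For these 3 genes the Nanos2-null column was the low one, and the control and double-null columns lay near each other. Whether the low values lay above background is not known. Zp2, Oosp1 and Bmp15 had low values in all columns.

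Cell cycle genes differed little as a list, with a median of 0.18 over 19 genes, 16 of them above 0. Ccne2, a cyclin of S phase entry, was higher by both probes, from 0.992 and 0.998 to 1.42 and 1.57. Mki67, the proliferation antigen, was lower by both probes, with a gene difference of -0.39. Top2a, the topoisomerase of dividing cells, had probes at -1.72, -0.83 and -0.21, so its size was not settled. Among 10 cell cycle inhibitors, Cdkn2a, the gene of p16 and ARF, had values of 1.26, 0.999 and 0.384 and was 2.60-fold lower by its single probe. Cdkn2c was higher by both of its probes, from 0.988 and 0.982 to 1.37 and 1.42. The list median was 0.12.

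The genes of p53 and apoptosis had a median of 0.24 over 13 measured members. Casp9, the initiator caspase, had values of 1.03, 0.511 and 1.14 and was 2.23-fold higher by its single probe. Its control value was close to that of the double-null column, so the low column was the Nanos2-null one. Pmaip1, a p53 target that promotes cell death, had values of 0.556, 0.976 and 1.38 and stepped up in both intervals, by less than 2-fold each. Fas and Bak1 were higher by both probes each, with gene differences of 0.37 and 0.35.

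Markers of the somatic cells of the testis were present on the array in nearly full lists and gave few large differences. All 17 Sertoli cell markers passed the filter, among them the defining genes Sox9, Amh and Dhh, with gene differences of 0.16, 0.27 and 0.37. The list median was 0.12, and none reached 2-fold. Nr5a1, the factor of steroidogenic and Sertoli cells, had probes at -1.32 and -0.06. The 7 Leydig cell markers had a median of -0.02 and lay between -0.19 and 0.16. Pre-granulosa markers had a median of 0.23 over 11 genes, or 0.01 with quantile normalization. Foxl2, the ovarian factor, had values of 0.848, 0.858 and 1.33, or 1.56-fold higher, whereas Fst of the same list was 1.51-fold lower. Of the 11 genes, 4 lay below 0, where 28.8% of all genes did. The values are relative, so they do not show whether such a gene was expressed.

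Markers of endothelial, macrophage and erythroid cells had medians close to 0, below the median of 0.14 over all genes. The medians were 0.02 over 11 endothelial markers, 0.02 over 10 macrophage markers and 0.03 over 8 erythroid markers, with none at 2-fold. The erythroid members lay between -0.13 and 0.13, the narrowest range of all lists. Mesonephric markers had a median of 0.21 over 9 genes and held opposite differences. Cdh16, a cadherin of renal epithelium, had values of 1.0, 2.05 and 0.822, 2.50-fold lower, whereas Ret, the GDNF receptor, had 0.369, 1.53 and 2.63, 1.72-fold higher. Over 12 immediate early and heat shock genes the median was 0.21. Fosb was 2.52-fold lower, from 1.56 to 0.621 with a control value of 0.998, while Fos, Egr1, Jun and Junb were above 0, from 0.28 for Jun to 0.46 for Egr1.

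Of the genes on the Y chromosome, Eif2s3y, Kdm5d and Uty had gene differences of 0.31, 0.27 and 0.32, near each other and above the median of all genes, although 1 of the 3 Uty probes lay at -0.43. Xist, the X-inactivation RNA, had 4 probes that disagreed, of which 3 lay between -1.55 and -1.07 and the fourth at 0.76. With a stricter filter only the probe at 0.76 was kept, so no direction is given for Xist. Over all lists, 5 of 274 distinct genes used were past 2-fold upward and 4 downward by the median of their probes, near the shares of 2.42% and 1.31% over all genes. Of the list medians, 8 of the 22 were below 0 once differences were centred.

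**Figure D5:**
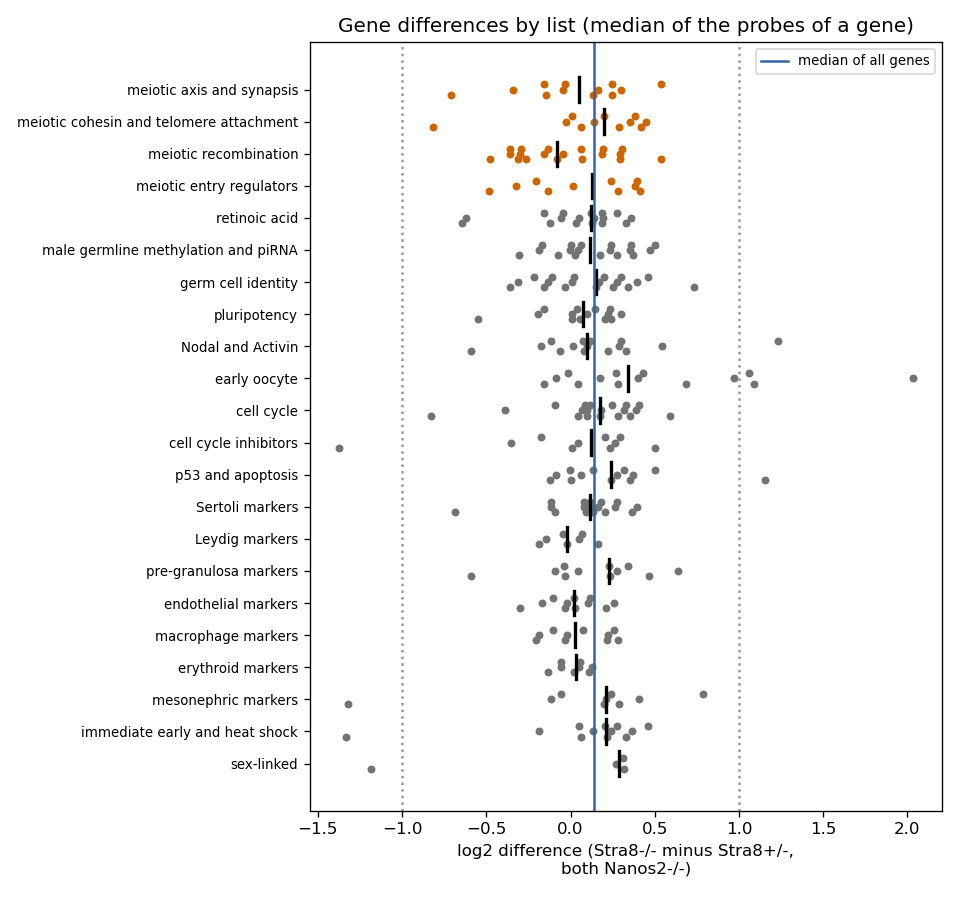
Gene differences of the members of all 22 lists that passed the filter, 1 point per gene, with the list median as a black bar, the median of all genes as a blue line and 2-fold as dotted lines (log2 axis). The 4 meiotic lists in orange stay inside the dotted lines, and the early oocyte list has the highest median and 3 members past 2-fold.

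Genes with a single probe past the filter gave most of the large differences. Some of them had further probes among those left out for low values. Of 9706 such genes, 376 were at least 2-fold higher, or 3.87%, and 197 lower, or 2.03%, so that 65.6% of them were higher. Centred on the median of all probes used, 292 were higher and 240 lower, or 54.9% higher. At 1.5-fold, 986 were higher, or 10.2%, and 392 lower, or 4.04%. The largest upward difference was that of Mzt2, a mitotic spindle gene, with values of 1.0, 0.0922 and 1.08 in the control, Nanos2-null and double-null columns. Here the Nanos2-null value alone stood apart, and its size depends on how low that value was, since the difference of 3.55 became 1.61 with a floor at the negative control. Mstn, the muscle growth inhibitor myostatin, had values of 0.251, 0.276 and 2.04, and Btla, a lymphocyte receptor, had 0.454, 0.308 and 2.46. For these the double-null column was the high one. Mstn and Btla passed the filter only through that column, so the filter fixes which column was high. Pax3, a factor of neural crest and muscle precursors, and Arpp21, a neuronal phosphoprotein gene, were 7.17-fold and 7.16-fold higher. With the probes of low values kept, these became a difference of 1.57 for Pax3 and of 0.22 for Arpp21, since further probes did not follow.

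Downward, several of the largest single-probe differences came from a high value in the Nanos2-null column. Lmtk3, a kinase gene, had values of 0.558, 3.53 and 0.367 in the control, Nanos2-null and double-null columns. Apobec4, of the cytidine deaminase family, had 0.233, 2.24 and 0.313, and Reg2, a secreted lectin of the pancreas, had 0.522, 2.35 and 0.345. The control and double-null columns lay near each other in all 3 genes. Both were below 0.7 there, so these genes passed the filter only through the Nanos2-null column. These values enter both the step from the control column and the Stra8 comparison, which share the Nanos2-null column, so a single high value there raises the first difference and lowers the second. Slc22a2, an organic cation transporter, had 1.54, 1.87 and 0.274 instead, with the double-null column low. The immunoglobulin segment Ighv1-33 had 0.378, 1.94 and 0.329, so it too passed the filter only through the Nanos2-null column. It was 5.89-fold lower, but the gene difference was -1.01 with low probes kept.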

How the data were processed

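Whole fetal testis RNA was measured on Agilent one-colour Cy3 arrays, and the submitters' processing notes name Feature Extraction 9.5. The authors deposited linear ratios, 1 column per genotype. The authors' normalization, the scaling between arrays and the way replicates 1 and 2 were combined are not given in the sources used here. That most probes were divided by their own middle value was inferred from the values. The number of arrays limits the precision.

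Of 41267 entries, 93 control spots were set aside. The platform annotation named 1 gene for 32664 probes and several for 45, and 8465 probes were not listed. RefSeq for GRCm38.p6 held the identifiers of 32524 probes and changed 0 symbols. Probes below 0.7 in all 3 columns were left out, a limit chosen with the values known, and 2410 genes had no probe left. A gene that passed the limit through 1 column had to differ between columns.

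Differences were taken with no pseudocount using Python 3.11.15, numpy 2.4.6 and pandas 2.3.3, and the counting was tested on simulated data. With 1 column per genotype no p-value was computed. The comparison, the gene lists and the rules were chosen with earlier results of these data known. Named were Stra8 and Nanos2, up to 15 genes per direction past 2-fold by every probe, 5 single-probe genes per direction, all meiotic list members and up to 6 members of other lists as candidates, not all of which are described. Named outside the rule for their role were Cyp26a1, Cyp26b1, Tdrd9, Gtsf1, Nanog, Sox2, Dppa5a, Sohlh2, Sox9 and Nodal.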

Additional observations from a re-analysis of the deposited data

Results flagged for a closer look

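Control spots on the array lie outside the gene comparisons, and 9 values among the 93 control spots were at least 2-fold above the control column. The dark corner spots, which carry no probe for a target, had a value of 0.864 in the Nanos2-null column against 0.331 for the control and 0.45 for the double-null column. In the Nanos2-null column the spot AT_nB_5 had 0.822 and AT_nX_3 had 1.28. In the double-null column AT_nB_5 had 0.637, AT_P_M had 0.680, AT_W_3 had 0.855, RC1 had 1.42, RC3 had 0.626 and RC9 had 0.665. In the other direction, AT_ssM_RR_3 had 0.385 and AT_ssM_RR_5 had 0.305 in the double-null column, against 1.06 and 1.01 in the control column. No group held 4 or more samples, so no sample could be called an outlier.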

How the results depend on the processing

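The count of genes higher by every probe, 9, was 5 with centred differences, 4 with quantile normalization, 5 with a pseudocount of 0.1, 3 when probes had to reach 0.7 in both columns without Nanos2, and 56 at 1.5-fold. Of the 9 genes, 5 remained under centring, and under the stricter filter Mdfi, Cartpt and Lhx8 did. The count of genes lower by every probe, 3, was 1 with the pseudocount, 0 under the stricter filter and 20 at 1.5-fold. All 3 remained under centring. A stricter filter removes a probe that is low in either column, so it removes large differences by construction. It left 88 single-probe genes higher and 23 lower at 2-fold, against 376 and 197 with the filter used. At 1.5-fold, with the filter used, these were 986 and 392. With no filter and with a floor at the negative control these 4 counts stayed within 1.5 times. Over 176 alternatives the medians of the 22 lists moved by at most 0.21, which is as large as most of the medians themselves, and by over 0.1 in 41. The largest move was that of the pre-granulosa list to 0.01 with quantile normalization, which also took the meiotic entry list to -0.05 and the retinoic acid list to -0.04. Quantile normalization brought the median of all genes to 0.06. Of 1531 alternative values for 195 genes, 26 moved by more than the spread of 0.42 between probes of a gene. Xist turned to 0.76 under the stricter filter, where only 1 of its probes was left. No paired analysis was possible because each genotype has 1 column. Depth has no meaning for these values, and signal over background is unknown.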
